A study of Mus musculus with 7 samples.

Results

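miR-210, miR-103 and miR-107 are microRNAs that have been tied to low oxygen in cultured cells, and they are 3 of the 306 mature miRNAs measured by real-time PCR in this series. Each was taken from the plate by its assay name, without regard to species prefix or letter case, and each name matched 1 assay. The samples were wound edge tissue of C57Bl6 mice on day 3 after wounding, with 3 samples from ischemic wounds and 4 from non-ischemic wounds. Ischemic wounds were made in a bipedicle flap, a skin strip left attached at both ends so that its middle receives less blood. The labels name no genotype, drug or animal age, and they do not say whether each sample is a separate animal. Every p-value below is therefore set against sample-to-sample spread that could in part be technical.

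miR-210 is the miRNA most closely linked to hypoxia. In cells short of oxygen the HIF transcription factors raise it, and it then lowers mitochondrial iron-sulfur cluster assembly and slows the cell cycle, also in keratinocytes. miR-103 and miR-107 are a pair of nearly identical miRNAs from introns of pantothenate kinase genes. They have been reported to rise in hypoxic cancer cell lines, to repress Dicer, the enzyme that cuts miRNA precursors, and to repress caveolin-1 and thereby insulin signalling in mice. miR-107 also represses ARNT, the partner of the oxygen-regulated HIF subunits.

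The mature sequences are shown because miR-103 and miR-107 differ so little that their assays must tell them apart by the 3′ end. They were read from RefSeq on build GRCm38.p6, where all 3 names matched, and bases 2 to 8, the seed that pairs with targets, are in capitals.
miR-210: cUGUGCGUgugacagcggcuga
miR-103: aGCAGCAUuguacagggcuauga
miR-107: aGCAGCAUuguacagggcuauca
miR-103 and miR-107 have the same seed, and no other name among 1679 mature mouse miRNAs in that table has it. Their 23 bases are identical at 22, and the substitution from miR-103 to miR-107 is G22C, counted from the 5′ end, which is the second base from the 3′ end. miR-210 has a seed of its own in that table. Whether either assay of the pair also reads the other miRNA was not tested.

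Mature miR-210 lies at chr7:141221407-141221428 on the minus strand, outside any protein-coding gene of the RefSeq table, and Rassf7 is the nearest of these at 2726 bases from the hairpin. Mature miR-107 lies at chr19:34820700-34820722 on the minus strand, inside the span of Pank1. miR-103 has 2 genes with the same mature form, Mir103-1 inside the span of Pank3 and Mir103-2 inside the span of Pank2, and each of these Pank genes runs on the same strand as its miRNA. The 2 miR-103 hairpins are shown with the mature form in capitals, since 1 assay reads the product of both.
Mir103-1 (chr11:35782396-35782481, plus strand): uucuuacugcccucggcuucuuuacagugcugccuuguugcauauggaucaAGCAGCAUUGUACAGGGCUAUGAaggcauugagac
Mir103-2 (chr2:131288052-131288137, plus strand): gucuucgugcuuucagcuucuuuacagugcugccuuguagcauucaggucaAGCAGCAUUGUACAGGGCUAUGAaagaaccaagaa
The PCR therefore gives the sum of both genes and cannot say from which host gene the miRNA came.

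All 3 miRNAs were measured near the end of the range of the PCR. A threshold cycle (Ct) below 35 is taken here as detection, a Ct of 40 stands where no product was seen, and a lower Ct means more RNA. By this limit miR-103 was detected in 2 of 3 samples from ischemic and 4 of 4 from non-ischemic wounds, miR-210 in 2 of 3 and 0 of 4, and miR-107 in 0 of 3 and 0 of 4. Of the 306 miRNAs, 103 had no product in any sample, and 85 more (27.8%), miR-107 among them, gave product in at least 1 sample but never with a Ct below 35. Levels are given as log2 of the ratio to 5S rRNA, obtained by subtracting the assay Ct from the 5S rRNA Ct. The Ct of 5S rRNA was 14.5 ± 0.062 in ischemic samples, against 14.6 ± 0.15 in non-ischemic samples (SD, n = 3 and 4, exact permutation p = 0.257).

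**Figure D1:**
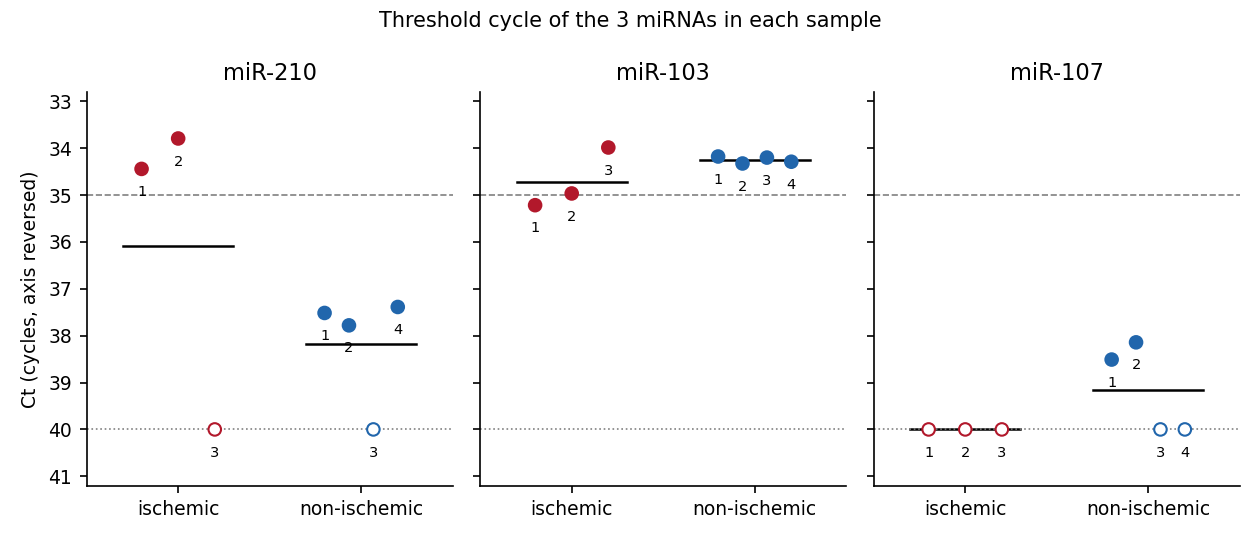
Threshold cycle (Ct, reversed axis) of miR-210, miR-103 and miR-107 in 3 ischemic and 4 non-ischemic samples, numbered by replicate, with group means as bars, detection at Ct 35 as a dashed line and open circles at 40 for no product. Ischemic samples 1 and 2 hold the earliest Ct of miR-210 and the latest Ct of miR-103, while ischemic sample 3 has no miR-210 product and the earliest Ct of miR-103.

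Ischemic sample 3 stood apart from the rest of the series, so results are given with and without it. Over the 76 miRNAs detected in every sample, its levels correlated with those of the other samples at 0.756 to 0.830, across miRNAs, which are not independent replicates. The highest correlation of each of the other 6 samples was 0.964 to 0.977. The 3 leukocyte miRNAs (miR-223, miR-142-3p and miR-142-5p) had a summed level of 145 millionths of 5S rRNA there, with 1 of 3 detected. Ischemic samples 1 and 2 had sums of 2977 and 4445, against 3093 to 4826 in non-ischemic samples, with 3 of 3 detected in each. The lymphocyte miRNA miR-150, outside this list, was not low in ischemic sample 3. From its non-ischemic mean it deviated by 0.12 log2 units there, against -0.73 and -0.37 in ischemic samples 1 and 2. The 4 skeletal muscle miRNAs (miR-1, miR-133a, miR-133b and miR-206) were all detected in all 7 samples and summed to 241, 405 and 875 in ischemic samples 1 to 3, against 159 to 212 in non-ischemic samples. An exception was miR-206 in ischemic sample 1, at a log2 level of -16.12, below the -15.86 to -14.95 of the non-ischemic samples. The 4 keratinocyte miRNAs (miR-203, miR-205, miR-200b and miR-200c) summed to 17.8 to 25.8 in ischemic and 25.8 to 47.97 in non-ischemic samples. They did not move alike. The log2 difference, ischemic minus non-ischemic, was -1.98 for miR-200b and -1.41 for miR-203, against -0.35 for miR-200c and -0.05 for miR-205. Both miR-200c and miR-205 overlapped between groups. The 2 erythroid miRNAs (miR-451 and miR-486) summed to 3.57 to 7.60 in ischemic samples, with 2 of 2 detected, against 0.309 to 1.75 in non-ischemic samples, with 0 or 1 detected. Taken alone, miR-486 overlapped between groups, at log2 levels of -19.84 and -20.01 in ischemic samples 1 and 2, against -19.46 in non-ischemic sample 1. Fibroblast miR-214 and miR-199a summed to 2.20 to 10.2 in ischemic and 8.81 to 15.2 in non-ischemic samples, with miR-199a never detected, and endothelial miR-126 was at 12.8 to 22.7 and 18.5 to 28.0. In such tissue, fewer cells of a type and less of a miRNA per cell cannot be told apart.

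miR-210 had its highest levels in 2 of the 3 ischemic samples and no product in the third. Its Ct was 34.4, 33.8 and 40 in ischemic samples 1 to 3, against 37.5, 37.8, 40 and 37.4 in non-ischemic samples 1 to 4. Ischemic samples 1 and 2 lay above every non-ischemic sample, ischemic sample 3 lay level with non-ischemic sample 3, and so the groups overlapped. Relative to 5S rRNA these Ct values correspond to 1.04 millionths in ischemic sample 1 and 1.51 in ischemic sample 2, against 0.132, 0.0962 and 0.162 millionths in non-ischemic samples 1, 2 and 4. In the samples without product the number in the files, 0.0219 millionths in ischemic sample 3 and 0.0230 in non-ischemic sample 3, is set by the Ct of 40 and is no measured level.

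Over all 7 samples the mean log2 level of miR-210 was -21.55 ± 3.38 in ischemic samples, against -23.52 ± 1.27 in non-ischemic samples (SD, n = 3 and 4). The difference of 1.97, ischemic minus non-ischemic, was within the spread among samples (exact permutation p = 0.286, two-sided over 35 splits, smallest possible 0.0286). It was 3.92 on the log2 scale without ischemic sample 3, and 0.86 and 1.13 without ischemic samples 2 and 1. For the 2 ischemic against 4 non-ischemic samples left without ischemic sample 3 the exact permutation p was 0.0667, which is the smallest such a comparison allows. Ischemic sample 3 had no miR-210 product, a leukocyte sum of 145 millionths and a muscle sum of 875. Non-ischemic sample 3 also had no product, but its leukocyte sum was 3093 and its muscle sum 172. Ischemic sample 2, with the earliest miR-210 Ct, had a muscle sum of 405, above every non-ischemic sample. The erythroid sum was higher in all 3 ischemic samples, whereas miR-486 alone overlapped between groups. The part of these miRNAs in the result was not tested.

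The size of the difference depends on how values beyond the limit are read. With every Ct above 35 set to 35, so that only miR-210 product detected before the limit counts, it was 0.47 (exact permutation p = 0.171). That value also holds the group difference in 5S rRNA Ct, which was -0.12 cycles. In this reading ischemic samples 1 and 2 were 0.56 and 1.21 cycles inside the limit, and no other sample was inside it. Detection itself, 2 of 3 ischemic against 0 of 4 non-ischemic samples, gave a Fisher's exact test p of 0.143. A limit at Ct 36 gave the same counts, whereas at Ct 38 the counts were 2 of 3 and 3 of 4. miR-210 was too rarely detected for the fit across miRNAs, which required a Ct below 35 in at least 3 samples.

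Of the 306 miRNAs, 2 (0.654%) were detected in at least 2 ischemic and in no non-ischemic sample, and these were miR-210 and the erythroid miRNA miR-451. miR-451, singled out after its values were seen, was detected in all 3 ischemic samples, at Ct 31.8, 33.0 and 34.5, against 36.1, 36.7, 36.7 and 35.5 in non-ischemic samples. miR-210 alone (1 of 306, 0.327%) was detected in ischemic samples 1 and 2 and in no other sample. Both patterns match the detection of miR-210 itself, so they only describe the plate, and the choice of samples in the last one was made after the values were seen. The 103 miRNAs without product, the 85 more never below Ct 35 and the 76 detected in every sample could show neither pattern.

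miR-103 was the member measured most evenly, and its levels were lower in ischemic samples 1 and 2 but not in ischemic sample 3. Its Ct was 35.2, 34.97 and 33.98 in ischemic samples 1 to 3, against 34.2, 34.3, 34.2 and 34.3 in non-ischemic samples 1 to 4. Its log2 level was -20.64, -20.51 and -19.43 in the ischemic samples, against -19.51, -19.85, -19.57 and -19.46 in the non-ischemic samples. Ischemic samples 1 and 2 lay below all 4 non-ischemic samples and ischemic sample 3 lay above all of them. Against the non-ischemic mean the deviations of ischemic samples 1 to 3 were -1.05, -0.91 and 0.17 log2 units, while the median deviations of all 103 tested miRNAs in these samples were -0.21, -0.08 and -0.53.

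The mean log2 level of miR-103 was -20.19 ± 0.67 in ischemic samples, against -19.60 ± 0.18 in non-ischemic samples (SD, n = 3 and 4), so that it was 1.51-fold lower in ischemic samples. The log2 difference of -0.60 ± 0.40 (SE) did not pass in limma, with an unadjusted p of 0.175 and an adjusted p of 0.5 over 103 miRNAs. The fit called 0 of 103 miRNAs (0%) at an adjusted p of 0.05, and 19 (18.4%) had an unadjusted p under 0.05, 14 of them lower in ischemic samples (13.6%), without miR-103. The groups did not overlap for 18 of the 103 (17.5%), and miR-103 was not among these. The median difference of all 103 miRNAs was -0.35, with 79 lower (76.7%), so that miR-103 was 0.24 log2 units below that median. Global mean normalization, which removes this shift, put miR-103 at -0.26 (adjusted p = 0.923 in limma).

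Without ischemic sample 3 the difference of miR-103 was -0.98 ± 0.34 (SE), a 1.97-fold lower level in ischemic samples 1 and 2. The adjusted p was 0.122 in limma and the unadjusted p 0.0177. In that fit 8 of 103 miRNAs (7.77%) passed after adjustment and 21 (20.4%) had an unadjusted p under 0.05, 17 of them lower in ischemic samples (16.5%). miR-103 was among the 17 and not among the 8. The median difference of all tested miRNAs was then -0.14, and after global mean normalization without that sample miR-103 was at -0.71 (adjusted p = 0.122 in limma). Both ischemic samples 1 and 2 lay below all non-ischemic samples for 28 of the 103 miRNAs (27.2%), miR-103 among them, and above all of them for 7 (6.8%). For 5 miRNAs (4.85%) ischemic sample 3 in addition lay above all non-ischemic samples, and besides miR-103 these were miR-30a-3p, miR-149, miR-365 and miR-422b, an order chosen after the values were seen.

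The non-ischemic samples agreed more closely in miR-103 than in most miRNAs. The SD of its log2 level over the 4 non-ischemic samples was 0.18, the third smallest of the 103 tested, whose median was 0.48. Of the raw Ct it was 0.071 cycles. PCR values usually scatter more at late cycles, and the 27 other tested miRNAs with a mean Ct within 1 cycle of that of miR-103 had a median SD of 0.72, each larger than that of miR-103. Over all 7 samples, ischemic ones included, the SD of miR-103 was 0.51, which ranked 25th of 103.

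**Figure D2:**
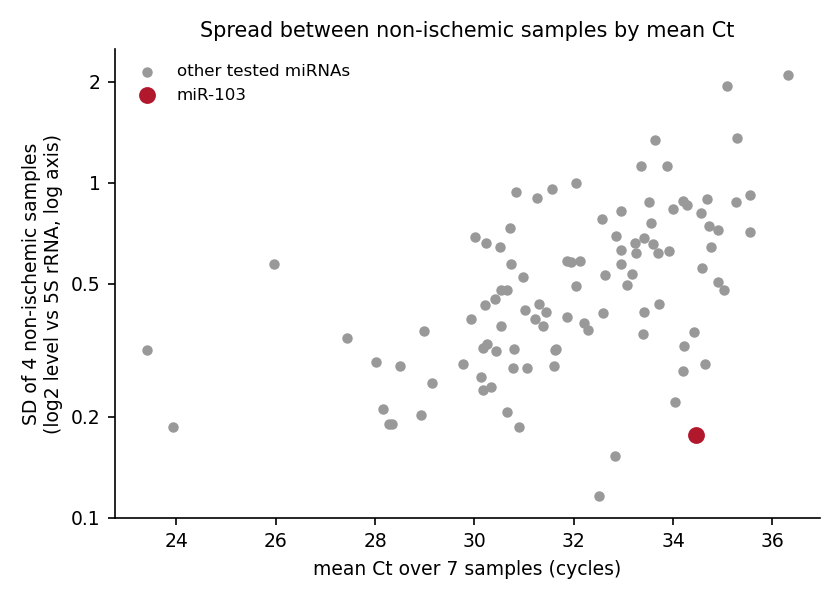
Spread (SD of the log2 level, log axis) of the 4 non-ischemic samples against mean Ct over 7 samples for the 103 tested miRNAs. miR-103, at a mean Ct of 34.5 and an SD of 0.18, sits below every miRNA within 1 cycle of its mean Ct.

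miR-107, the near twin of miR-103, gave almost no signal. Its Ct was 40 in ischemic samples 1 to 3, against 38.5, 38.1, 40 and 40 in non-ischemic samples 1 to 4. Product was thus seen in 0 of 3 ischemic samples, against 2 of 4 non-ischemic ones (p = 0.429 by Fisher's exact test), and in none before cycle 38. At least 2 non-ischemic and no ischemic samples with product, a pattern that matches the counts of miR-107 itself, were found for 5 of 306 miRNAs (1.63%). The others were miR-296, miR-96, miR-350 and miR-491.

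The deposited log2 level of miR-107 was -25.47 ± 0.062 in ischemic samples, against -24.51 ± 0.88 in non-ischemic samples (SD, n = 3 and 4), a difference of -0.96 (exact permutation p = 0.171). No ischemic sample has a measured level behind it. In the 5 samples without product the levels ran from -25.54 to -25.17, and this range of 0.38 is the range of the 5S rRNA Ct in the same samples. On raw Ct, where samples without product are tied, the exact permutation p was 0.429, and with every Ct above 35 set to 35 the difference was -0.12 (exact permutation p = 0.257), which is the difference of 5S rRNA alone.

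Comparing members within a sample removes 5S rRNA from the result. The Ct of miR-107 exceeded that of miR-103 by 4.78, 5.03 and 6.02 cycles in ischemic samples 1 to 3, against 4.33, 3.82, 5.80 and 5.71 cycles in non-ischemic samples 1 to 4. Wherever miR-107 gave no product these are lower bounds, and across assays they also hold the unequal efficiency of 2 PCRs. The group means differed by 0.36 cycles (exact permutation p = 0.6), which turned to -0.0057 without ischemic sample 3, to -0.0035 without non-ischemic sample 2 and to -0.40 with late Ct set to 35.

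Ischemic sample 3 was the lowest ischemic sample in miR-210 and the highest in miR-103. The log2 level of miR-210 minus that of miR-103 was 0.77, 1.17 and -6.02 in ischemic samples 1 to 3, against -3.34, -3.45, -5.80 and -3.10 in non-ischemic samples 1 to 4. The values of ischemic sample 3 and non-ischemic sample 3 are upper bounds, since miR-210 gave no product there. In ischemic samples 1 and 2 miR-210 came up before miR-103, and in the other 5 samples after it. The group difference, computed with Ct 40 as a value, was 2.57 (exact permutation p = 0.229). With the mean of miR-103 and miR-107 as partner it was 2.75 (exact permutation p = 0.286), but miR-107 stands at Ct 40 in all 3 ischemic and 2 of 4 non-ischemic samples, so that this number is set in part by the placeholder and measures no level.

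**Figure D3:**
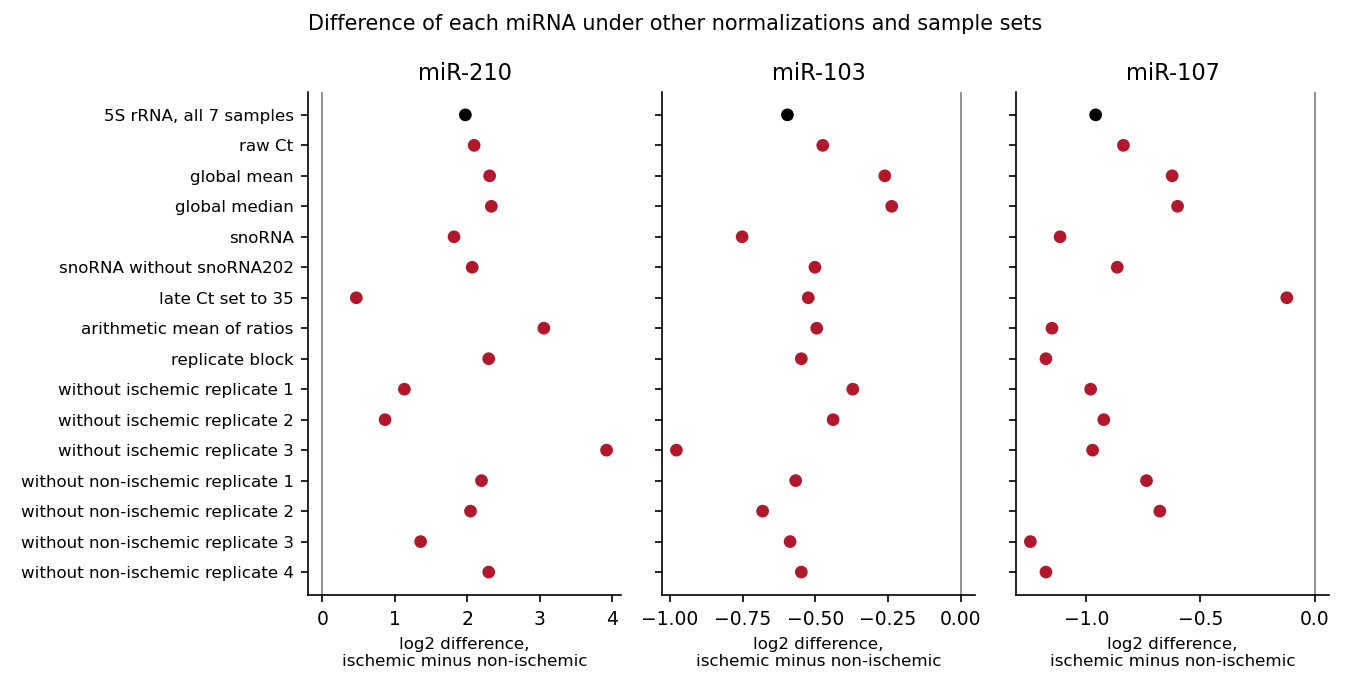
Log2 difference, ischemic minus non-ischemic, of miR-210, miR-103 and miR-107 relative to 5S rRNA with all 7 samples (black) and under other normalizations, readings of late Ct and sample sets (red), with a separate horizontal scale for each miRNA. No point crosses 0, but miR-210 runs from 0.47 with late Ct set to 35 to 3.92 without ischemic sample 3, and miR-103 from -0.98 to -0.24.

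The assays whose Ct ran most like that of miR-103 were found by the SD over 7 samples of their Ct difference to it, a measure in which 5S rRNA cancels. The rule asked for detection in all samples, which no member reached, so that miRNAs detected in at least 6 samples were taken, a change made after the values were seen. Among these 87 miRNAs the smallest SD was that of miR-365 (0.27 cycles), followed by miR-99a (0.29), miR-422b (0.30), miR-150 (0.33) and let-7c (0.37), where the median was 0.73 and the largest, that of miR-142-3p, was 2.08. miR-150 is a lymphocyte miRNA and let-7c belongs to the let-7 family, which is typical of differentiated cells. The snoRNA234 assay, a control small RNA, also followed miR-103 closely, with an SD of 0.33, whereas the SD to 5S rRNA was 0.51. The other control RNAs detected in all samples did not follow it as closely. Their SDs were 0.50 for snoRNA142, 0.53 for snoRNA251, 0.72 for 18S and 1.58 for snoRNA202.

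These assays were picked for running like miR-103 over the same 7 samples, so that their shared pattern restates the choice and is given as a description. From their own non-ischemic means, ischemic samples 1 and 2 deviated by -0.58 and -0.88 in miR-365 and by -0.83 and -0.59 in snoRNA234, while ischemic sample 3 deviated by 0.61 and 0.32. The differences between groups were -0.28 ± 0.44 (SE) for miR-365 and -0.72 ± 0.50 for miR-99a, with adjusted p of 0.793 and 0.512 in limma. The control RNA snoRNA234 was at -0.36 (exact permutation p = 0.457). It overlapped between groups, since non-ischemic sample 2 deviated by -0.77.

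**Figure D4:**
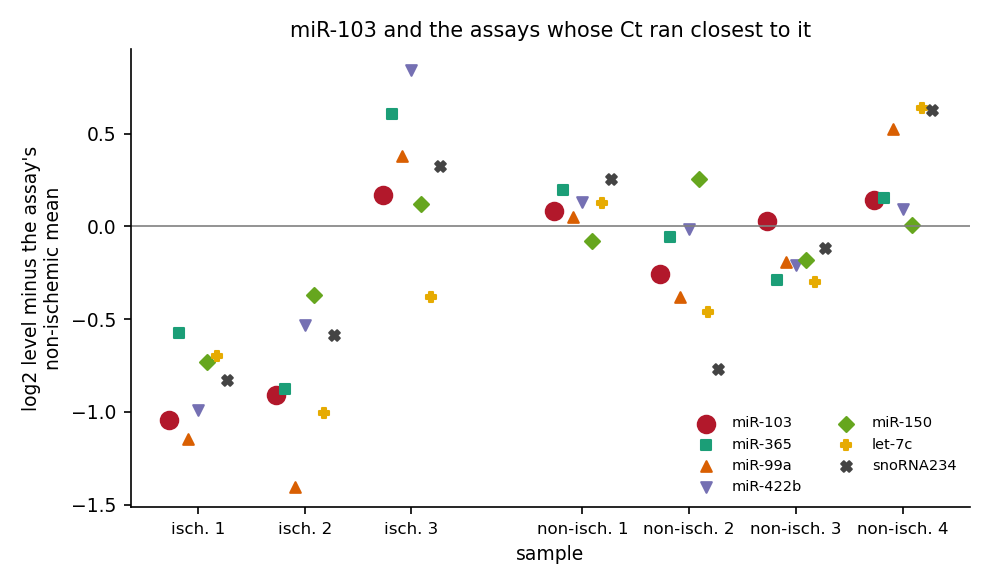
Log2 level of miR-103, of the 5 miRNAs closest to it and of snoRNA234 in each sample, each minus its own mean over the 4 non-ischemic samples. In ischemic samples 1 and 2 all 7 assays lie below 0, and in ischemic sample 3 all but let-7c lie above 0.

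Of 15 other miRNAs on the plate that have been reported to rise in hypoxic cultured cells, 10 were tested. Against 5S rRNA the ischemic mean was lower for 9 and higher for 1 of these, but after global mean normalization 2 were lower and 8 higher. Of all 103 tested miRNAs, 79 (76.7%) were lower against 5S rRNA and 53 (51.5%) after global mean normalization. None (0 of 10) had an adjusted or an unadjusted p under 0.05 in limma, where 19 of 103 (18.4%) had an unadjusted p under 0.05. Their median difference was -0.27, against -0.35 over all 103 tested miRNAs. miR-26b had a log2 difference of -0.79 ± 0.42 (SE), and a limma adjusted p of 0.388, while its sister miR-26a was at -0.30 ± 0.34 (0.734). miR-24, which acts on the cell cycle, was at -0.28 ± 0.35 (0.772). The miRNA with the higher mean, named after its values were seen, was miR-30b at 0.13 ± 0.37, which turned to -0.04 without ischemic sample 3. Without ischemic sample 3, 7 were lower and 3 higher against 5S rRNA, where 58 of 103 (56.3%) were lower.

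The remaining 5 of these 15 were never detected. miR-23a gave no product in any sample, and miR-23b, miR-181a, miR-181c and miR-192 gave product in some samples with every Ct above 35. miR-192, taken as the example after its values were seen, had a Ct of 38.96, 37.2 and 40 in ischemic samples 1 to 3, against 40, 38.3, 37.4 and 40 in non-ischemic samples 1 to 4, so that product was seen in both groups.

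miR-103 and miR-107 also belong to a wider group that carries the letters AGCAGC at base 1 or 2 of the mature strand, to which miR-15 and miR-16, repressors of cell cycle and survival genes, belong. The sequences are shown to make the shift visible: the motif, in capitals, starts at base 1 in miR-103 and at base 2 in the others, which moves the seed by 1 base.
miR-103: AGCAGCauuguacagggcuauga
miR-15b: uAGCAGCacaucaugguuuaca
miR-16: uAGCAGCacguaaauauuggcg
miR-195: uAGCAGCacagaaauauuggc
miR-497: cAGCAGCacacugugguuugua
miR-503: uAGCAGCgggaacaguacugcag
Searched on the mature strand only, the motif stands at base 1 or 2 in 13 of 1679 mature mouse miRNA names of the RefSeq table (0.774%).

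Of 8 other miRNAs of this group on the plate, 4 were tested. All 4 had a lower ischemic mean against 5S rRNA, 3 of 4 after global mean normalization, and 1 of 4 without ischemic sample 3. The shares of all 103 tested miRNAs with a lower mean were 76.7%, 51.5% and 56.3% in these fits. In limma 0 of 4 had an unadjusted p under 0.05 (18.4% of all tested), and 1 of 4 did without ischemic sample 3 (20.4% of all tested), with none passing after adjustment. Their median difference was -0.46, against -0.35 over all 103. miR-497 was at -1.30 ± 0.76 (SE), miR-16 at -0.50 ± 0.58 and miR-15b at -0.42 ± 0.55, with adjusted p of 0.422, 0.742 and 0.774 in limma. The miR-497 difference leaned on ischemic sample 1, at a Ct of 36.5 beyond the limit and a log2 level of -21.92. Ischemic samples 2 and 3 were at -19.22 and -18.44, against -18.92 to -17.96 in non-ischemic samples. Without ischemic sample 3 miR-497 was at -2.01 ± 0.67, and it was the 1 of 4 under 0.05. miR-322 gave no product in any sample, and miR-15a, miR-424 and miR-503 were never detected. The RefSeq table holds no mouse miR-424, so its motif was not checked. miR-503, an antiproliferative miRNA singled out after its values were seen, had its earliest Ct in the same samples as miR-210, at 37.1, 35.8 and 40 in ischemic samples 1 to 3, against 40, 39.8, 40 and 40 in non-ischemic samples 1 to 4, all beyond the limit.

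**Figure D5:**
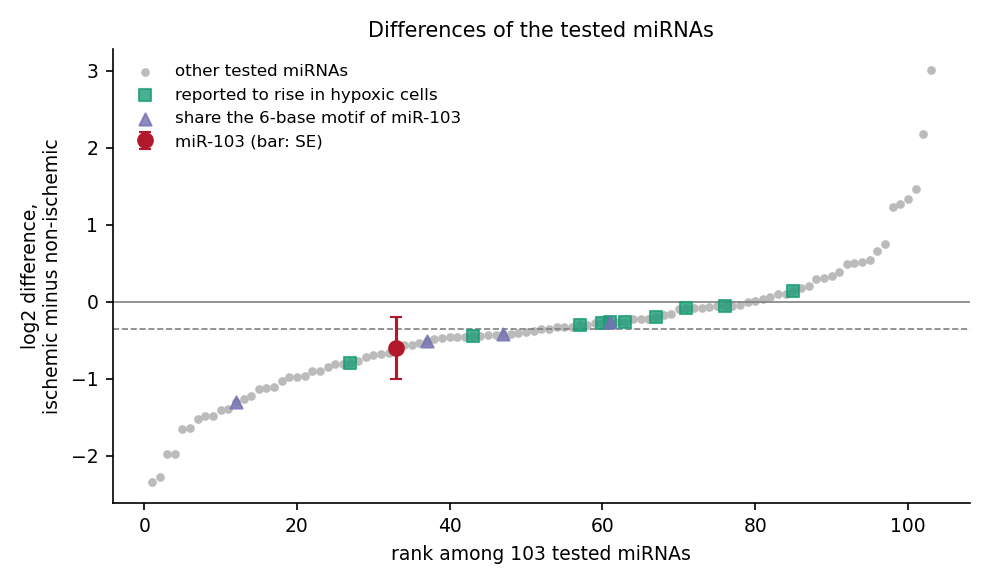
Log2 difference, ischemic minus non-ischemic, of the 103 tested miRNAs in rank order, with the median of -0.35 as a dashed line. miR-103 (-0.60, bar SE) is marked with the 10 tested miRNAs reported to rise in hypoxic cells (squares) and the 4 that share its motif (triangles, miR-195 in both), most of which lie near that median.

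The authors' deposited table of group means gave larger contrasts than geometric means for miR-210 and miR-107, but not for miR-103. In the authors' deposited table miR-210 was at 0.859 millionths of 5S rRNA in ischemic and 0.103 in non-ischemic samples, a fold of 8.31 that was the third highest of 306 miRNAs. That fold is a ratio of arithmetic means, in which the 2 high samples count most, and the ratio of geometric means of the same values was 3.92. For miR-107 the authors' deposited table gave a fold of 0.451, with 0.0215 millionths in ischemic and 0.0477 in non-ischemic samples, and the geometric fold was 0.5145. The same ischemic value, 0.0215, stands in the authors' deposited table for the 103 miRNAs with no product in any sample, and their fold there is 0.916. For miR-103, which gave product in all samples, the authors' deposited fold was 0.71 and the geometric fold 0.662.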

How the data were processed

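RNA was extracted with a miRVana kit, per the labels; 500 ng of it was reverse transcribed with pooled looped primers, and PCR ran on an Applied Biosystems 7900HT in plates of 384 wells. How the Ct threshold was set: not given in the sources used here. In the deposited tables are raw Ct values of 316 assays and a delta Ct, a log2 level that equals the 5S rRNA Ct minus the assay Ct for 315 of them within 0.0001 cycles. The exception, 18S, has the opposite sign and was read from the raw Ct. The authors also deposited the linear ratio, 2 to the power of the delta Ct, and group means with a fold. The sample columns of the raw table were named through the second line of the deposited delta Ct table, and 7 columns repeating the 5S rRNA Ct were not used. PCR gives no molecule count here, so precision is the spread between samples.

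The group comparison used lmFit and eBayes of limma 3.58.1 (R 4.3.3) with Benjamini-Hochberg adjustment, over 103 miRNAs that reached Ct values under 35 in 3 or more samples, Ct 40 kept as deposited. The design had miR-107 as a row of this fit, but it did not pass the filter, so it was compared, like miR-210, by exact permutation. Named miRNAs were the members, the 5 miRNAs closest to miR-103 by SD of the Ct difference (miR-210 and miR-107 were detected in too few samples for this), and the 3 smallest p of each of 2 lists. The members and lists were chosen with earlier results of these data known. The fit was tested on simulated data.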

Additional observations from a re-analysis of the deposited data

Results flagged for a closer look

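Among 26 assays named here with product in all 4 non-ischemic samples, 3 had a non-ischemic sample far from the other 3 by Dixon's test, where chance gives about 1 in 20. snoRNA202, part of the snoRNA reference, had a Ct of 31.96 in non-ischemic sample 2, against 27.8 to 28.3 in the others. Leaving it out of that reference put miR-103 at -0.50, against -0.75 with it, and miR-210 at 2.07, against 1.82. miR-15a, of the motif group of miR-103, had a log2 level of -24.37 in non-ischemic sample 3, against -23.05 to -22.95 in the others, all beyond Ct 35. miR-26a was at -13.12 in non-ischemic sample 4, against -13.58 to -13.50 in the others.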

How the results depend on the processing

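miR-210 had a higher and miR-103 a lower ischemic mean under each alternative that gave them a value, and none passed the threshold. miR-107 had a lower value too, which with late Ct set to 35 is 5S rRNA alone. For miR-210 and miR-107 the permutation tests with a sample left out and with the block could not reach 0.05, so they say nothing about stability. Without each sample in turn the difference ran from 0.86 to 3.92 for miR-210, from -0.98 to -0.37 for miR-103 and from -1.24 to -0.68 for miR-107. The difference between miR-103 and miR-107 of 0.36 ran from -0.0057 to 0.66 over samples left out and reversed to -0.40 with late Ct set to 35. It also turned to -0.0035 without non-ischemic sample 2; miR-107 had no Ct below 35, so these are comparisons of bounds. miR-210 against the mean of the pair, with miR-107 mostly at the placeholder, ran from 1.54 to 4.89. The share of ischemic samples with miR-210 detected minus that of non-ischemic samples was 66.7 percentage points, 33.3 at Ct 34 and -8.33 at Ct 38. The count of miRNAs passing in limma, 0 with all samples, was 1 after global median and 1 after quantile normalization, and ran from 0 to 8 over samples left out, with 8 without ischemic sample 3 and 7 when that was joined with global mean normalization, an alternative added after seeing the data. The count at an unadjusted p under 0.05 was 19, and 10, 11 and 12 without non-ischemic samples 1, 3 and 4. miR-103 could not be tested among miRNAs detected in all 7 samples, since ischemic sample 1 was beyond Ct 35.

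The labels do not say whether replicate numbers pair the samples. The deviations of same-numbered samples correlated at -0.08, -0.30 and -0.11 over 103 miRNAs, against -0.43 to 0.41 for differently numbered samples. With 3 same-numbered pairs, these correlations cannot exclude a pairing. With the replicate number as a block the differences were -0.55 for miR-103 (adjusted p = 0.886 in limma), -1.18 for miR-107 and 2.29 for miR-210, 0.63 for miR-103 minus miR-107 and 3.16 for miR-210 minus the pair, with 0 miRNAs passing in limma and 7 at an unadjusted p under 0.05. The late Ct of all 3 members and the small groups limit the precision.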
